A study of Mus musculus with 3 samples.

Results

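The 37 Hox genes described here are those of 19938 named genes whose symbol in the platform annotation is Hoxa, Hoxb, Hoxc or Hoxd followed by a number and that had a probe set of their own. They encode homeodomain transcription factors and lie in 4 clusters, each on its own chromosome. Hoxb8 shared its probe set with Hoxb7 and was not analysed alone. Each of the 37 had 1 probe set, so no member could be checked against another probe set of its own gene. Total RNA came from healing wounds on the backs of C57Bl/6 mice, an inbred laboratory strain, aged 6 weeks. Every animal had received a full-thickness excision of 1.5 cm2 that took out epidermis and dermis together, and the groups were wound tissue of day 10, of day 12 and of day 14 after this surgery. The tissue of 3 mice was pooled for each day and measured on 1 one-colour array. There was no replicate and no unwounded skin among the samples, every difference below compares single pools, and the number of arrays limits the precision.

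Hox genes are numbered by paralog group from 1 to 13, and along each cluster low numbers are switched on earlier and further forward in the embryo and high numbers later and further back. This order, known as collinearity, gives each level of the trunk its own set of active Hox genes. Fibroblasts of adult skin keep much of the set of the body site they came from, and the set is held in place by Polycomb and Trithorax chromatin proteins. Hox proteins bind DNA together with the TALE cofactors of the Pbx, Meis and Pknox families. All tissue measured here came from the back, so these arrays hold no comparison between body sites, and the positional meaning of the label cannot be checked with them.

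The promoters of 21 of the 37 members were found in the RefSeq promoter table of the GRCm38.p6 assembly, as 23 windows of 300 bases. Only Hoxc4 of the Hoxc cluster and Hoxb1 and Hoxb4 of the Hoxb cluster were among them. The rest belonged to Hoxa and Hoxd, and no window was found for Hoxc5 to Hoxc11. Those of Hoxa5, Hoxa7, Hoxa9 and Hoxa10 are shown because these near neighbours of a single cluster differed in opposite directions between the days. Capitals mark matches on either strand to TGATTNAT, a Hox and Pbx composite site, to TGACAG, a Meis site, to TTTATG, a Cdx site, or to TATAAA, the TATA box. No pair of these motifs overlapped in the windows shown.
Hoxa5 (chr6:52204538-52204837, minus strand): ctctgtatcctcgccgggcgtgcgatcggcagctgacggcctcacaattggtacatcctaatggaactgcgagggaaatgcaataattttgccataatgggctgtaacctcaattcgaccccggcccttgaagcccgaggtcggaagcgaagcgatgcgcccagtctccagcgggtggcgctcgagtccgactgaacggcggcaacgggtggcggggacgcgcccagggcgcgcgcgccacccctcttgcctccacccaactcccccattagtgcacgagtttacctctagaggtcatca
Hoxa7 (chr6:52218524-52218823, minus strand): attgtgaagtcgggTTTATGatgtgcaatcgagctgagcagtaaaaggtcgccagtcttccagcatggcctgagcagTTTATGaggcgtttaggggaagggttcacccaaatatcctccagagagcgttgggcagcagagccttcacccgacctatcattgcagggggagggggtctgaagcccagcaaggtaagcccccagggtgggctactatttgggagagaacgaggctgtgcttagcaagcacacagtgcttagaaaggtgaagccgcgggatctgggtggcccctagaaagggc
Hoxa9 (chr6:52227321-52227620, minus strand): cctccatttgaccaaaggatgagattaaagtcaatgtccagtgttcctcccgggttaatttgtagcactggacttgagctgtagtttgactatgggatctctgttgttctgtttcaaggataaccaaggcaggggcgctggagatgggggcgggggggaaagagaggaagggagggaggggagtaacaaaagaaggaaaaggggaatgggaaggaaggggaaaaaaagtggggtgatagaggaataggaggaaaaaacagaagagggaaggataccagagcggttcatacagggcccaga
Hoxa10, first start (chr6:52240805-52241104, minus strand): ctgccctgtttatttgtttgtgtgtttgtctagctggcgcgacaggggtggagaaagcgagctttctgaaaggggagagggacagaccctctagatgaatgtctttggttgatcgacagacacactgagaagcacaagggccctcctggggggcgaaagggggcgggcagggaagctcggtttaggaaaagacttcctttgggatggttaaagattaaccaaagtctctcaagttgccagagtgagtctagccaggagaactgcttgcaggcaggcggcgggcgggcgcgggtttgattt
Hoxa10, second start (chr6:52234890-52235189, minus strand): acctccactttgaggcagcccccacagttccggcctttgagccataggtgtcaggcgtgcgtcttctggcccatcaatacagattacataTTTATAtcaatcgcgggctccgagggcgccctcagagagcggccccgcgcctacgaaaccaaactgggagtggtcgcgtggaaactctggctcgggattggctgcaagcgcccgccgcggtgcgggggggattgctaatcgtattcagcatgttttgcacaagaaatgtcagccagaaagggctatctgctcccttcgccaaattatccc
The Hoxa7 window held TTTATG at 2 places, the window at the second start of Hoxa10 held TATAAA at 1 place, and the windows of Hoxa5, Hoxa9 and the first start of Hoxa10 held none of the 4 motifs. Among all 32851 promoter windows, TTTATG was present in 11.9% and TATAAA in 13.6%, and among the 23 Hox windows they were present in 4 and in 3. TGATTNAT was found in 2 of the Hox windows and in 3.22% of all windows, and TGACAG in 2 of the Hox windows and in 19.2% of all. The median window held 15 CpG dinucleotides among the 23 Hox windows, which are mostly of the Hoxa and Hoxd clusters, against 7 among all windows. Within the Hoxa windows shown, the count of CpG was 29 for Hoxa5, 9 for Hoxa7, 4 for Hoxa9, and 12 and 21 for the starts of Hoxa10. A match describes letters in these windows only.

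The levels by cluster were described first. Probe sets differ in how strongly they bind their target, so levels of different genes are not ranked by amount of RNA. Instead, each gene was set against the values that the same array gave for 1022 olfactory receptor genes, which skin is not known to use widely. The 95th percentile of that set lay at 6.46 log2 units on day 10, 6.47 on day 12 and 6.51 on day 14. Of the 37 Hox genes, 29 lay above it on all 3 days, as did 71.6% of all named genes. The 29 held all 14 genes of paralog groups 4 to 8 and all 7 of groups 9 to 10. They also held 6 of the 7 genes of groups 1 to 3, but only 2 of the 9 genes of groups 11 to 13. The remaining 8 were Hoxa11, Hoxa13, Hoxb13, Hoxc11, Hoxc12, Hoxd1, Hoxd12 and Hoxd13. With the 99th percentile of the olfactory receptor genes in its place, 21 Hox genes lay above it on all 3 days, of which 3 belonged to groups 1 to 3 and none to groups 11 to 13. The share of all genes above the 99th percentile was not counted. By definition, as many genes lie above the array's median over all genes as below it. Of the 37 Hox genes, 10 lay above that median on all 3 days and 26 on none. Among these 10, 5 were in the Hoxc cluster. Those 5 were Hoxc5, Hoxc6, Hoxc8, Hoxc9 and Hoxc10, and the other members were Hoxa7, Hoxa9, Hoxb2, Hoxb3 and Hoxd8.

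**Figure D1:**
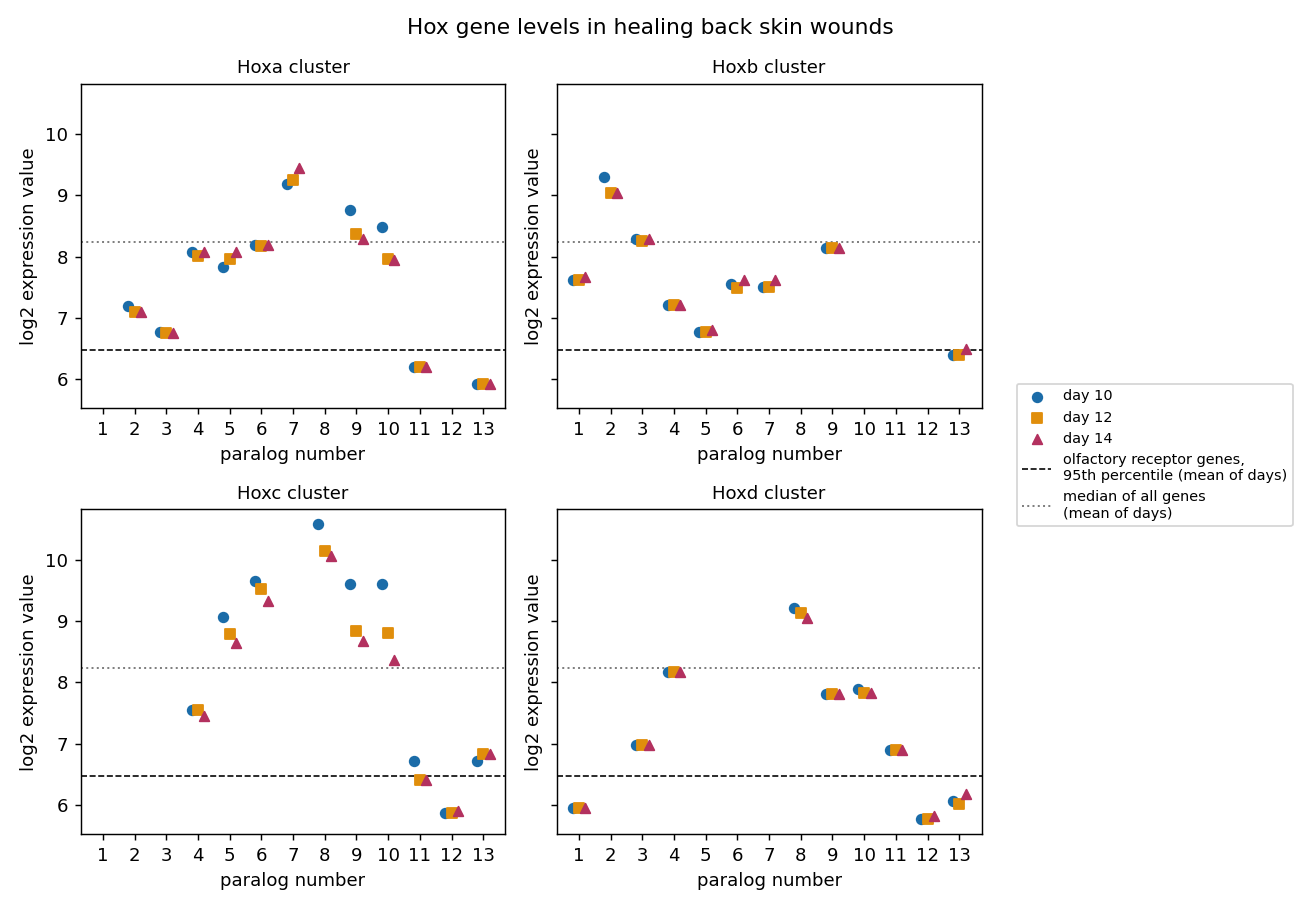
Log2 expression value of each measured Hox gene (vertical axis) by paralog number (horizontal axis) in the 4 clusters, with 1 point per day and array; the dashed line is the 95th percentile of 1022 olfactory receptor genes and the dotted line the median of all genes, each averaged over the days. All genes of groups 4 to 10 sit above the dashed line, and most genes of groups 11 to 13 sit near or under it.

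In the Hoxa cluster, 8 of the 10 measured genes lay above the olfactory receptor level on every day. Hoxa2, which patterns the second branchial arch, stood at 7.19 on day 10, 7.10 on day 12 and 7.10 on day 14. Hoxa3, which acts in the pharyngeal pouches that give thymus and parathyroid, stood at 6.77, 6.76 and 6.76 in the same order of days. Both lay under the 99th percentile of the olfactory receptor genes in every pool. Hoxa4 stood at 8.08, 8.01 and 8.08, and Hoxa6 at 8.19, 8.18 and 8.19, so that both had equal values on day 14 and day 10. Hoxa11, which patterns the forearm and acts in the uterus, held 6.20 on every day, and Hoxa13, which patterns the digits, held 5.93 on every day. These last genes were below the olfactory receptor level on all arrays.

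In the Hoxb cluster, 8 of 9 measured genes lay above that level on every day. Hoxb2, a gene of hindbrain patterning, stood at 9.30 on day 10, 9.03 on day 12 and 9.04 on day 14. Hoxb3 stood at 8.29, 8.25 and 8.29, and Hoxb1, another hindbrain gene, at 7.62, 7.62 and 7.67. The remaining Hoxb genes differed little between the pools. Hoxb4, known for its effect on blood stem cells, held 7.20 on every day, and Hoxb9 held 8.14 on every day. Hoxb5 stood at 6.76, 6.76 and 6.80, Hoxb6 at 7.54, 7.49 and 7.62, and Hoxb7 at 7.51, 7.51 and 7.62. Hoxb13, a gene of the tail bud and the prostate, stood at 6.40, 6.40 and 6.50, each under the olfactory receptor level of its own array.

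In the Hoxd cluster, 6 of 9 measured genes lay above the level on every day. Hoxd8 stood at 9.22 on day 10, 9.14 on day 12 and 9.06 on day 14, and it was the single Hoxd gene above the array median. Hoxd3, Hoxd4, Hoxd9 and Hoxd11 held one value each on all 3 days, namely 6.98, 8.17, 7.80 and 6.90. Hoxd10 stood at 7.90, 7.83 and 7.83. The low group consisted of Hoxd1, at 5.96 on each day to 2 decimals, Hoxd12, between 5.76 and 5.82, and Hoxd13, a gene of digit formation, between 6.01 and 6.17. The reported spans of Hoxd3 and Hoxd4 and of Hoxd10 and Hoxd11 overlap in the gene table, as do those of Hoxb3 and Hoxb4 and of Hoxa3 with Hoxa4, Hoxa5 and Hoxa6. Signal of these 6 overlapping pairs may not be fully separate.

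The Hoxc cluster held the Hox genes with the largest differences between days. In its middle part, 6 neighbouring measured genes from Hoxc5 to Hoxc11 were all lower on day 14 than on day 10. This stretch and its ends were picked after the values were seen, and the count is a description, since Hoxc4, the next measured gene, was lower on day 14 as well. Hoxc8, which patterns the thoracic skeleton and its motor neurons, stood at 10.58 on day 10, 10.14 on day 12 and 10.06 on day 14. Hoxc9, another thoracic gene, stood at 9.61, 8.84 and 8.67. Hoxc10, of the paralog group that suppresses ribs in the lumbar region, stood at 9.61, 8.80 and 8.37. The day 10 pool had the highest value of each of these genes and the day 14 pool the lowest. Hoxc5 stood at 9.07 on day 10, 8.78 on day 12 and 8.64 on day 14, and Hoxc6 at 9.66, 9.52 and 9.32, with the same order of pools. Hoxc11 stood at 6.72 on day 10 and at 6.40 on day 12 and on day 14, crossing to below the olfactory receptor level.

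Differences at the ends of the cluster were smaller. Hoxc4 stood at 7.55 on day 10, 7.55 on day 12 and 7.45 on day 14, so it too was lower on day 14, by a difference of −0.098. Hoxc12 stood at 5.87, 5.87 and 5.91, under the olfactory receptor level on every day. Hoxc13, which mice need to form hair shafts and nails, stood at 6.72 on day 10 and at 6.82 on day 12 and day 14. It was thus higher by 0.11 on day 14 than on day 10, within the scatter between probe sets given below. In the list of hair shaft and matrix markers, which does not hold Hoxc13, Foxn1, a transcription factor of hair keratinization, stood at 8.54 on day 10, 8.92 on day 12 and 8.82 on day 14. Of the hair keratin genes in that list, Krt33a stood at 6.44, 6.67 and 7.47 and Krt86 at 5.40, 5.58 and 6.16. Both were higher on day 14 than on day 10 by more than 1.5-fold, as were 3.11% of all genes, but no fold is given because Krt86 lay under the olfactory receptor level on every day and Krt33a on day 10. The other measured hair keratins stayed under 1.5-fold, with differences of 0.57 for Krt31, 0.32 for Krt33b, 0.20 for Krt34 and 0.19 for Krt35, and Krt36 held one value. Krt31 also lay under the olfactory receptor level on day 10 and day 12, and Krt36 on every day.

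Differences between days were then counted over all 37 members, with no filter on low values. A 1.5-fold difference, 0.58 on the log2 scale, was used as the size threshold, since no test is possible with 1 array per day. To give a scale of scatter between probe sets, the difference of a pair of them was compared within each of 999 genes that had several. In 95% of these genes the probe sets agreed to within 0.34 log2 units for day 12 against day 10, 0.30 for day 14 against day 12 and 0.45 for day 14 against day 10. This scatter leaves out the spread between animals. It also leaves out any difference between RNA preparations or arrays that both probe sets of a gene share. With 1 array per day, such a difference cannot be told apart from a difference between days. In bulk tissue such as this, fewer cells of a type and less RNA per cell cannot be told apart.

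On day 12 against day 10, Hoxc9 and Hoxc10 were lower by at least 1.5-fold, and no Hox gene was higher by that much. These 2 of 37 compare with 0.958% of all genes lower and 2.33% higher. Hoxc9 was 1.70-fold lower and Hoxc10 1.75-fold lower on day 12, and neither reached 2-fold, as 0.13% of all genes did in that direction. The differences of Hoxa10, Hoxc8 and Hoxa9, at −0.53, −0.44 and −0.38, also went past the scatter between probe sets, while staying under 1.5-fold. With these 5 genes, 13.5% of the members were lower by more than that scatter, against 4.48% of all genes. All 5 belong to paralog groups 8 to 10 of the Hoxa and Hoxc clusters. Over all members, 18 were lower, 4 higher and 15 exactly equal, with a median difference of 0.00, and over all genes 34.5% were lower, 25.5% higher and 40% equal, with a median of 0.00.

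On day 14 against day 12, no Hox gene reached 1.5-fold, against 0.712% of all genes lower and 0.271% higher by that size. Hoxc10 had the largest difference, at −0.44, and it was the single member past the scatter between probe sets, as were 3.16% of all genes in the same direction. Hoxc6 and Hoxc9 followed at −0.20 and −0.17, and Hoxa7, a thoracic patterning gene, differed by 0.20. Most of the difference of Hoxc8, Hoxc9, Hoxa9 and Hoxa10 lay in the first interval, where 84.0%, 81.6%, 82.0% and 96.7% of the whole difference from day 10 to day 14 was seen. For Hoxc10 this share was 64.8% and for Hoxc6 it was 40.0%.

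On day 14 against day 10, Hoxc9 and Hoxc10 were again the members lower by at least 1.5-fold, beside 2.98% of all genes, and no member was higher by that size, beside 3.11% of all genes. With 2 of 37 members, this share is close to that background. Hoxc10 was 2.37-fold lower on day 14 than on day 10, a log2 difference of −1.25, and it alone passed 2-fold, as did 0.512% of all genes. Hoxc9 was 1.91-fold lower, with a log2 difference of −0.94. Hoxa10, Hoxc8 and Hoxa9 differed by −0.54, −0.52 and −0.47, and these 5 genes were again the members past the scatter between probe sets, against 5.27% of all genes lower by more than that. Hoxc5, Hoxc6, Hoxc11 and Hoxb2 differed by −0.42, −0.34, −0.32 and −0.26, inside that scatter. Hoxa7 and Hoxa5, a gene of lung and cervical patterning, were higher by 0.26 and 0.24, also inside it. The other 26 members differed by less than 0.2 in size. The 11 that differed by 0.2 or more are 29.7% of the members, near the 26.4% of all genes that did so. Over all members, 15 were lower, 11 higher and 11 equal, with a median difference of 0.00, and over all genes 35.6% were lower, 34.9% higher and 29.5% equal.

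**Figure D2:**
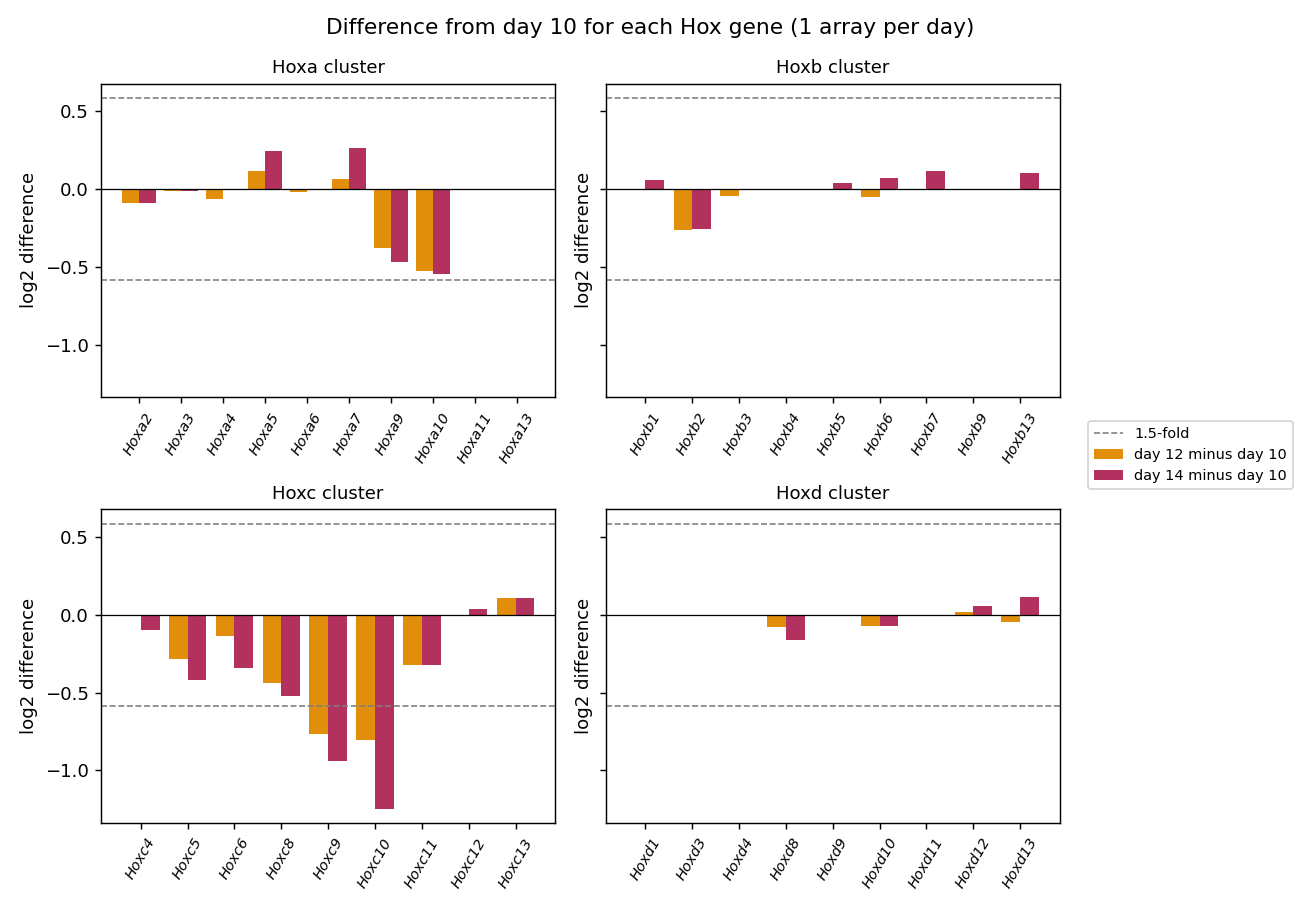
Log2 difference from day 10 (vertical axis) for each Hox gene in paralog order (horizontal axis), with day 12 minus day 10 in orange and day 14 minus day 10 in red; dashed lines mark 1.5-fold. The bars of Hoxc9 and Hoxc10 pass the lower line on both days, and most Hoxb and Hoxd bars are near 0.

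The clusters can be set side by side. The median difference of day 14 from day 10 was −0.34 over the 9 Hoxc genes, 0.00 over the 10 Hoxa genes, 0.04 over the 9 Hoxb genes and 0.00 over the 9 Hoxd genes. In the Hoxc cluster 7 genes were lower and 2 higher, whereas in the Hoxb cluster 1 was lower, 5 were higher and 3 were equal. By paralog number, the median was −0.47 over the 7 genes of groups 9 to 10, 0.00 over the 14 genes of groups 4 to 8, 0.00 over the 7 genes of groups 1 to 3 and 0.04 over the 9 genes of groups 11 to 13. Within groups 9 to 10 the clusters parted, since Hoxb9 and Hoxd9 had equal values on all days and Hoxd10 differed by −0.07. The difference between clusters was not tested, because each day had 1 array.

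A steady order over the 3 days was counted next. Of the 37 members, 8 were lower on day 12 than on day 10 and lower again on day 14, as were 18.1% of all genes. With 8 of 37 members, this share is close to that background. The 8 were Hoxa9, Hoxa10, Hoxc5, Hoxc6, Hoxc8, Hoxc9, Hoxc10 and Hoxd8, and 5 of the 8 lie in the Hoxc cluster. Hoxa5, Hoxa7 and Hoxd12 were higher at each step. The share of all genes with this order was not counted, so their number is not set against a background. Hoxd12 lay under the olfactory receptor level on every day, between 5.76 and 5.82. Hoxa5 stood at 7.84 on day 10, 7.95 on day 12 and 8.08 on day 14, and Hoxa7 stood at 9.19, 9.25 and 9.45. In the Hoxa cluster the steady order ran upward at Hoxa5 and Hoxa7 and downward at Hoxa9 and Hoxa10. The differences of Hoxa5 and Hoxa7 between day 14 and day 10 lay inside the scatter between probe sets. Hoxa9, which is also active in blood progenitors, stood at 8.75, 8.37 and 8.29, and Hoxa10, which acts in the uterus as well, at 8.48, 7.95 and 7.94.

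**Figure D3:**
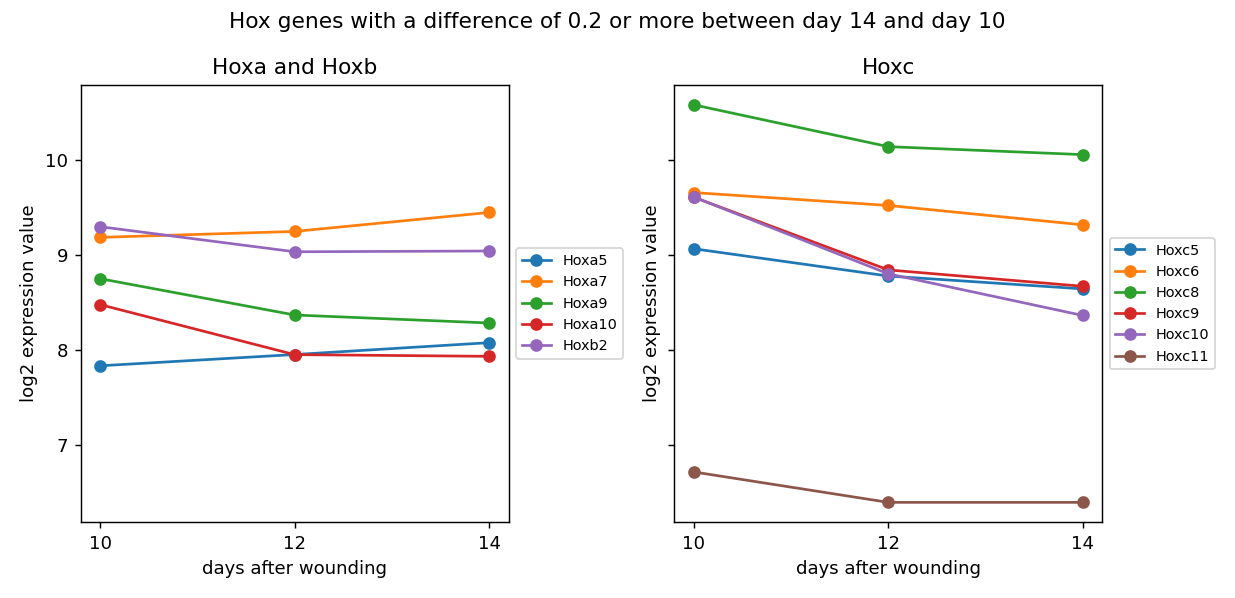
Log2 expression value (vertical axis) on day 10, 12 and 14 after wounding (horizontal axis) for the 11 Hox genes that differed by 0.2 or more between day 14 and day 10, with 1 array per day. These 11 are 29.7% of the members, and 26.4% of all genes differed by that size. Among the 11, Hoxa5 and Hoxa7 are higher on day 14, and the other 9 are lower.

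Of 8 measured TALE cofactors, 6 were lower on day 14 than on day 10, 1 was higher and 1 equal, beside 35.6% of all genes lower, 34.9% higher and 29.5% equal. Their median difference was −0.27 beside 0.00 over all genes, and none reached 1.5-fold. Meis2 stood at 10.31 on day 10, 10.00 on day 12 and 9.75 on day 14, Meis1 at 9.61, 9.36 and 9.17, and Pbx3 at 10.13, 9.86 and 9.70. Each of these cofactor genes thus had its highest value in the day 10 pool. Meis2, with a difference of −0.56, was the single one past the scatter between probe sets of 0.45, and Meis1 and Pbx3, at −0.43 each, lay inside it. The list was fixed by membership in the families and not by how its genes moved.

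The chromatin genes showed little difference as lists. Of 17 Polycomb genes, 9 were lower, 4 higher and 4 equal on day 14 against day 10, beside 35.6%, 34.9% and 29.5% of all genes. The 1 gene that passed 1.5-fold did so upward, as 3.11% of all genes did, and 1 of 17 is near that background. That gene was Cbx7, which encodes a reader of the Polycomb mark, at 8.36 on day 10, 8.74 on day 12 and 9.17 on day 14, and it was 1.75-fold higher on day 14. Ezh2, the methyltransferase that writes that mark, held 10.45 on all 3 days. Phc1, a subunit of the canonical Polycomb complex, differed by −0.34. None of 10 Trithorax and demethylase genes reached 1.5-fold, with a median of 0.00. Among them Kmt2a, a methyltransferase that maintains Hox expression, stood at 10.24 on day 10, 10.45 on day 12 and 10.44 on day 14, and Wdr5 differed by −0.41.

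Genes upstream of Hox expression were looked at in the same way. Of 15 Cdx, Gdf11 and retinoid genes, 9 were higher and 4 lower on day 14 against day 10, beside 34.9% and 35.6% of all genes, with a median of 0.03. Aldh1a3, a retinoic acid synthesis gene, was the single one past 1.5-fold, and it stood at 10.11 on day 10, 9.84 on day 12 and 9.41 on day 14. Of all genes, 2.98% were lower by that size, and 1 of 15 is near that background. Cyp26b1, which degrades retinoic acid, differed by 0.41, and Rxra and Cdx1 by 0.33 and 0.31. Aldh1a3 and Cyp26b1 thus differed in opposite directions, but only Aldh1a3, at −0.70, went past the scatter between probe sets of 0.45. The differences of Cyp26b1, Rxra and Cdx1 lay inside that scatter.

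Other transcription factors of regional identity included several with the order of Hoxc10. Of 34 measured, 4 were lower and 1 higher by at least 1.5-fold on day 14 against day 10, beside 2.98% and 3.11% of all genes, and the list's median was 0.00. Tbx18 stood at 9.12 on day 10, 8.54 on day 12 and 8.20 on day 14. Tbx15, which sets the boundary between dorsal and ventral coat in mice, stood at 11.32, 10.91 and 10.60, and Prrx2, a homeobox gene of mesenchyme, at 9.95, 9.29 and 9.21. En1, which marks the dermal lineage that scars in mouse back skin, stood at 9.43, 9.07 and 8.82. These 4 genes all had their highest value in the day 10 pool. Barx2, a homeobox gene of hair follicle and epithelium, ran the other way at 8.79, 9.37 and 9.56, and was 1.70-fold higher on day 14 than on day 10. The limb genes Tbx5 and Tbx4 stood between 6.08 and 6.22 and between 6.65 and 6.71, and Tbx5 was below the olfactory receptor level on every day. En1, Tbx4 and Tbx5 were picked after the list's values were seen.

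**Figure D4:**
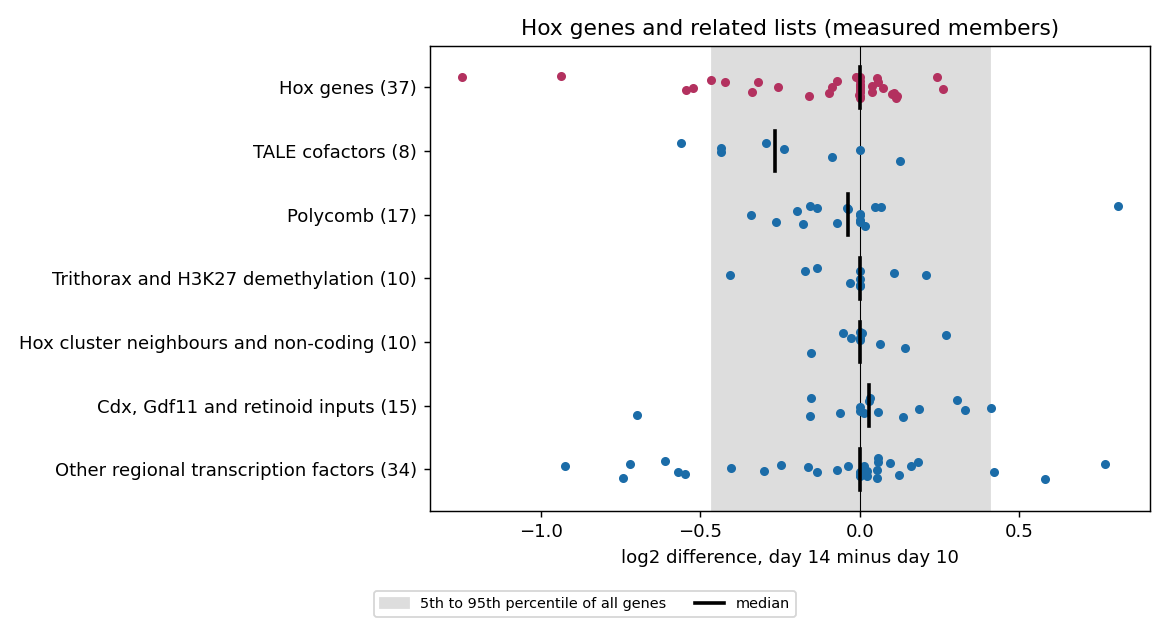
Log2 difference of day 14 minus day 10 (horizontal axis) for Hox genes and the related lists (rows, with the number of measured members), with 1 point per gene, a bar at the median and a grey band from the 5th to the 95th percentile of all genes. The points farthest to the left among Hox genes are Hoxc10 at −1.25 and Hoxc9 at −0.94.

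The clusters also hold microRNA genes, and their mature forms are shown because they fall into a pair of seed families that repeat across clusters. Capitals mark the seed, bases 2 to 8, as in RefSeq on GRCm38.p6.
miR-10a-5p, Hoxb cluster: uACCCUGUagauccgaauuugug
miR-10b-5p, Hoxd cluster: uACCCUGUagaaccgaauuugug
miR-196a-5p, Hoxb and Hoxc clusters: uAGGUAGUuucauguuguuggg
miR-196b-5p, Hoxa cluster: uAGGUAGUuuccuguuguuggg
The miR-10 genes share one seed and the miR-196 genes another, and miR-196 is known to target Hox transcripts in mice. The arrays read their primary transcripts at most, not the mature forms. Mir10a stood between 5.15 and 5.17 and Mir10b held 5.10 on all days. Mir196a-1 stood at 5.42 on day 10, 5.49 on day 12 and 5.69 on day 14, and Mir196a-2 and Mir196b stayed between 6.15 and 6.32. All 5 lay below the olfactory receptor level on every array, and these genes, apart from Mir196a-1, were named after their values were seen. Of the 10 measured cluster neighbours and non-coding genes, Evx2, a homeobox gene beside the Hoxd cluster, and Mir615, which lies inside Hoxc5, were the 2 above that level on all 3 days, and none reached 1.5-fold.

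The make-up of the tissue was described with cell type markers on the same arrays. All 6 keratinocyte and all 8 fibroblast markers lay above the olfactory receptor level on every day, as did 71.6% of all genes. All 6 leukocyte and all 4 endothelial markers did too, so this count cannot check the label of wound epidermis and dermis. Of the 8 fibroblast markers, 4 were lower, 3 higher and 1 equal on day 14 against day 10. Over all genes, 35.6% were lower, 34.9% higher and 29.5% equal. The fibroblast markers had a median of −0.02 and list means of 12.71 on day 10, 12.66 on day 12 and 12.60 on day 14. Within that list Twist2, a dermal transcription factor, differed by −0.55 and Pdgfra by −0.29. All 6 keratinocyte markers were higher on day 14, with list means of 12.64, 12.87 and 12.95, and Lor, a cornified envelope gene, was 1.95-fold higher, the single one past 1.5-fold beside 3.11% of all genes. Of 11 hair shaft and matrix markers, 9 were higher and 2 equal, with list means of 7.12, 7.24 and 7.48.

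The other marker lists moved in both directions. The counts below stand beside 35.6% of all genes lower, 34.9% higher and 29.5% equal on day 14 against day 10. All 4 endothelial markers were lower on day 14, none by 1.5-fold, with list means of 10.84, 10.56 and 10.45. Of the 5 skeletal muscle markers, 3 were lower, 1 was higher and 1 equal on day 14 against day 10, with list means of 7.55, 7.13 and 7.23. Myl1, a muscle myosin light chain, stood at 7.05 on day 10, 5.86 on day 12 and 6.12 on day 14. It lay under the olfactory receptor level on day 12 and day 14. Of 6 leukocyte markers, 3 were higher and 3 lower, with list means of 11.03, 11.28 and 11.04. The 3 adipocyte markers had list means of 6.17, 6.17 and 6.24. All 3 were higher on day 14, but only 1 of them lay above the olfactory receptor level on every day. The 2 measured Schwann cell markers had list means of 7.82, 8.22 and 8.42. Both were higher by at least 1.5-fold on day 14 than on day 10, as were 3.11% of all genes. The part of these lists in the differences of Hoxc8, Hoxc9 and Hoxc10 was not tested.

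**Figure D5:**
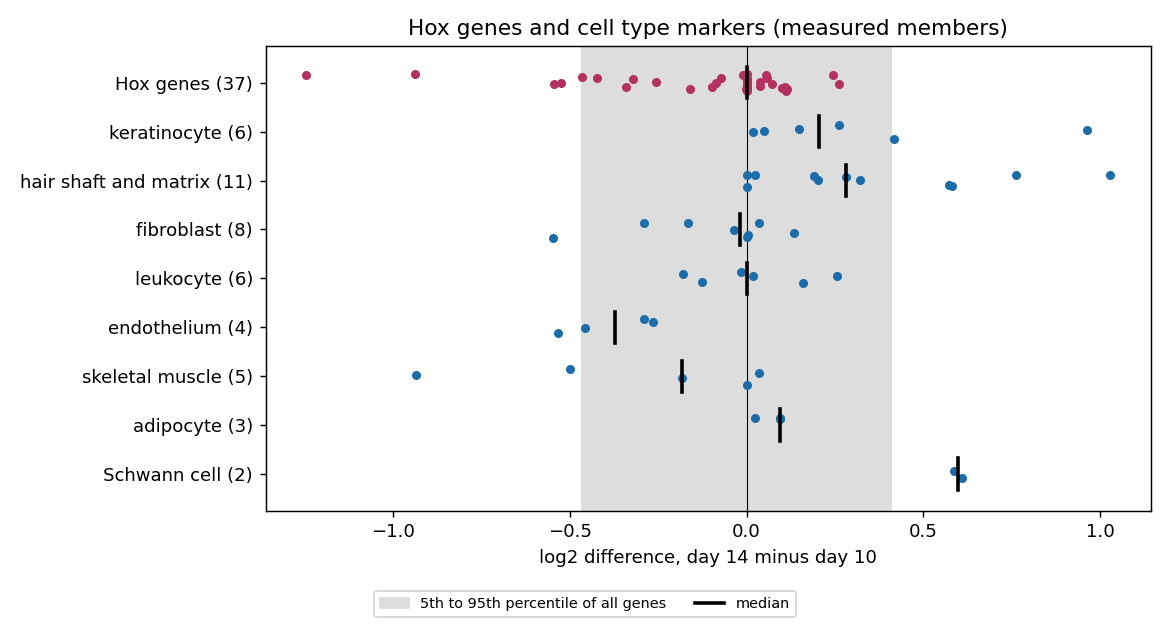
Log2 difference of day 14 minus day 10 (horizontal axis) for Hox genes and cell type markers (rows, with the number of measured members), with 1 point per gene, a bar at the median and a grey band from the 5th to the 95th percentile of all genes. Keratinocyte markers lie to the right of 0 and endothelial markers to the left, hair markers lie to the right of 0 apart from Krt36 and Msx2 at 0, and fibroblast markers centre near 0.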

How the data were processed

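Total RNA of 3 pools of wound tissue, 1 per day, was measured on one-colour arrays. The values are log2 expression values per probe set as deposited by the authors. RMA and Partek 6.6 are named, without their roles, per the submitters' processing notes, and the log2 scale was read from the range of 4.37 to 14.1. The build and annotation behind the array design are not given in the sources used here. No scanner output was used, so depth in the sense of signal over background is unknown. The median over 35556 probe sets was 7.53, 7.55 and 7.53 on day 10, 12 and 14.

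Symbols came from the platform annotation, which gave 1 symbol for 21789 probe sets, several for 1621 and none for 12146. Probe sets with 1 symbol were averaged per gene. All 37 members matched the gene table by Entrez identifier. All members are accounted for by name. Outside them, genes were named by the largest differences between day 14 and day 10 in each list, at most 4 per list, with Foxn1, Meis1, Meis2, Ezh2 and Kmt2a whatever their values. The hair shaft and matrix list is an exception, since all its measured hair keratins were named and Dlx3, at 0.579, was not described. Members, lists and threshold were chosen with earlier results of these data known. Equal values are common, with 8 of 37 Hox genes and 25.7% of all genes identical on all 3 arrays, so a difference of 0.00 is not a precise measurement of no difference. Alternatives were 2 filters on low values, median centring, quantile and cyclic loess normalization (limma 3.58.1, R 4.3.3), the probe set with the highest mean for each gene, and a threshold of 2-fold. Counting was tested on simulated data. Python 3.11.15 and pandas 2.3.3 were used.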

Additional observations from a re-analysis of the deposited data

Results flagged for a closer look

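The probe set shared by Hoxb8 and Hoxb7 was left out of the 37 members because it names 2 genes. It held 6.90 on day 10, day 12 and day 14, above the 95th percentile of the olfactory receptor genes on each array, and it was noted as signal in data that the comparisons did not use. Hoxd11 held the same deposited value of 6.90 on all 3 days.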

How the results depend on the processing

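With 1 array per day nothing here has a replicate check, and no test was run. No paired analysis was possible because each day has 1 pool and the labels give no replicate numbers. The count of Hox genes above the olfactory receptor level on all 3 days was 29, and 10 against the median of all genes. With a 2-fold threshold the counts of Hox genes became 0 for day 12 and 1 for day 14, each set against day 10. The median Hox difference of 0.00 became −0.33 for day 12 minus day 10, −0.084 between day 14 and day 12, and −0.44 over the whole course, when genes were filtered on their highest value, and −0.28, −0.084 and −0.38 when filtered on their mean. Over all genes kept, the medians were 0.00, −0.0012 and −0.021 under the first filter and 0.00, 0.00 and −0.018 under the second. Each filter kept 10 Hox genes, and it removes most members that stay near one value, so the filtered medians describe fewer genes. Hoxa10 passed the filter on the highest value through day 10 alone, which lowers that median. The other 70 alternative values kept within 1.5 times the count, or within a narrower measure of the scatter between probe sets. That measure was a robust standard deviation, taken from the median absolute deviation. It was 0.053 for day 12 against day 10, 0.062 for day 14 against day 12 and 0.092 for day 14 against day 10. Some of the 70 values could not move. Each Hox gene had 1 probe set, so taking the probe set with the highest mean left the Hox differences as they were. Median centring shifts all genes of an array by the same amount. Under median centring, quantile and cyclic loess normalization, which were added for single genes after the data were seen, Hoxc10 lay between −1.23 and −1.22 and Hoxc9 between −0.92 and −0.90 on day 14 against day 10, and Hoxc5 to Hoxc11 were lower in 6 of 6 measured genes.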
